A study of Mus musculus with 6 samples.

Results

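Solute carriers are the membrane proteins that move amino acids, sugars, ions, metals, nucleosides and other small molecules across the cell surface and the membranes of organelles. Their transcripts were followed here in long-term haematopoietic stem cells (LT-HSC) lacking normal Itpkb. The deposited table of normalized CPM holds 372 rows named as solute carriers. The members are the 193 of them that reached 1 normalized CPM in 3 or more of the 6 libraries, a level that 12008 genes of the table reached in all. Slc7a5, Slc3a2, Slc7a11, Slc2a1, Slc2a3, Slc16a3, Slc40a1, Slc11a2, Slc30a1 and Slc39a10 were left out by rule, 10 genes in all, and the other 169 rows lay under the threshold. The members were thus chosen by their level in these same libraries.

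The mutant cells came from C57BL/6 mice homozygous for the Ms T-less allele of Itpkb, which was induced with the mutagen ENU and which the titles spell IPTKB-/-. The control cells came from their WT litter mates. Both groups were age-matched, and Itpkb was altered in the whole animal rather than in blood cells alone. There were 3 libraries of each genotype, each from the bone marrow of 4 pooled mice, and at least 10000 cells were sorted for each as LSK CD34-CD150+CD48-Flk2- cells. Libraries were made from 1 to 5 ng of RNA by NuGEN Ovation amplification, in which the strand of origin is lost.

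Itpkb encodes a kinase that phosphorylates inositol trisphosphate, a second messenger that releases calcium from internal stores. Solute carriers are numbered by sequence family, and most families share a substrate: the Slc1, Slc7 and Slc38 families carry amino acids, Slc16 monocarboxylates and related acids, Slc25 the metabolites exchanged across the inner mitochondrial membrane, Slc35 nucleotide sugars, and Slc30 and Slc39 zinc. Stem cells of the marrow are mostly quiescent, and nutrient uptake rises in blood progenitors when they enter the cell cycle. A transcript level says nothing by itself of transport activity, which also depends on protein abundance and membrane localisation.

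The recovered read totals were 4777870, 6559673 and 7470329 across the Itpkb-/- libraries, and 4024203, 6597505 and 5241831 across the WT libraries. A single read was worth 0.131 to 0.249 normalized CPM, and the floor of 3 reads lay between 0.393 and 0.746. Itpkb itself stood at 10.2, 13.99 and 18.2 in Itpkb-/- cells, against 22.1, 23.6 and 25.1 in WT cells (log2 difference -0.73, limma adjusted p = 0.172; 0.0541 with same-numbered libraries as pairs), and a point mutation need not remove a transcript. All 10 LT-HSC markers were detected. Their summed level was 1649 to 2199 in Itpkb-/- cells and 2757 to 3364 in WT cells. By limma 5 of the 10 fell, where 3.24% of all genes tested were lower. All 9 granulocyte markers were higher on average in Itpkb-/- cells. None passed with limma or edgeR, none had an unadjusted limma p under 0.05, DESeq2 called 1, and all 9 passed with same-numbered libraries as pairs. Their summed level was 6140, 18034 and 899 in Itpkb-/- libraries and 3544, 2581 and 684 in WT libraries. Markers of B cells summed to at most 2.95 in a library, and markers of T cells to at most 1.24. In such bulk samples fewer cells of a type and less RNA per cell cannot be told apart.

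Of the 193 members, 10 rose and 9 fell in Itpkb-/- LT-HSC, where a call means a limma adjusted p no higher than 0.15, the limit that the study's design text set for its own false discoveries. The 19 called members are 9.84% of the members, where the background over all 12008 genes tested was 5.5%. By direction, 5.18% of members rose against a background of 2.27%, and 4.66% fell against 3.24%. The urea carrier Slc14a2, counted among the 10, reached the level threshold only through the Itpkb-/- libraries, and Slc17a8, which did not pass, only through the WT libraries. Without both, 9 of 191 members rose and 9 fell. The median log2 difference was 0.01 over the members and 0.00 over all genes, and 98 members had a positive difference while 95 had a negative one. Differences above 0.5 in size on the log2 scale were seen in 41 members (21.2%) and in 18.6% of all genes. Taken as a sum, the members held 0.859% of the normalized signal in Itpkb-/- libraries and 0.810% in WT libraries.

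Several values limit the count of 19. Leaving out a library kept 16, 9 and 14 of the 19 calls without Itpkb-/- replicates 1, 2 and 3, and 8, 9 and 2 without WT replicates 1, 2 and 3. With the mean of the granulocyte markers as a covariate, 6 of the 19 were still called, and all 19 kept their direction. The part of the lower LT-HSC marker level in these calls was not tested. When libraries of the same number were treated as pairs, 33 members were called, 19 higher and 14 lower, or 17.1% of members against a background of 18.1%. At the stricter adjusted p of 0.05, 5 members passed, 2.59% against a background of 1.52%. On the recovered reads edgeR called the same 19 members, with a background of 6.02% of 11486 genes. DESeq2 called these and 4 more that rose (Slc28a2, Slc16a6, Slc44a2 and Slc6a6), and 5.66% of 15599 genes. Those 15599 are all genes with a read, so they take in genes under the level threshold of the members. The DESeq2 share thus describes a set unlike the members. The genotypes did not overlap for 46 members (23.8%), against a background of 21.3%; 25 of these were higher in Itpkb-/- cells, where the background was 10%, and 21 lower, where it was 11.3%.

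**Figure D1:**
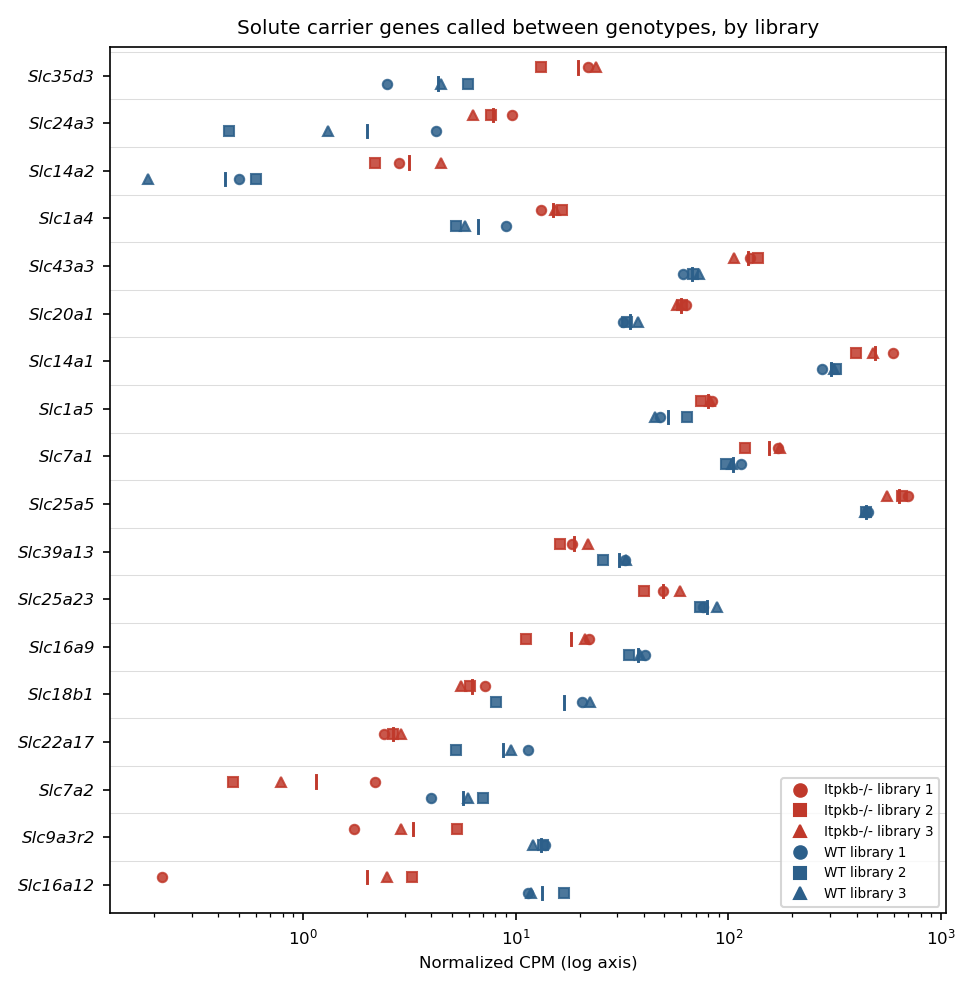
Normalized CPM (log axis) of 18 of the called members in each of the 3 Itpkb-/- and 3 WT libraries, with library numbers shown by symbol. Slc14a2, among those shown, reached the level threshold only through the Itpkb-/- libraries. In every row shown the Itpkb-/- points lie to one side of the WT points, from Slc16a12 at 0.218 to 3.26 in Itpkb-/- cells and 11.4 to 16.9 in WT cells to Slc35d3 at 13.2 to 23.9 in Itpkb-/- cells and 2.49 to 5.98 in WT cells.

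Measured per kilobase of exon in WT cells, the members spanned 0.0826 to 270.3 normalized CPM per kb. Slc25a5, an ADP/ATP exchanger of the inner mitochondrial membrane, was at the top with 387 in Itpkb-/- cells and 270.3 in WT cells. The urea carrier Slc14a1 followed with 122.8 in Itpkb-/- cells and 76.0 in WT cells. Slc35a4, a nucleotide sugar family member, had 69.3 and 70.1 in Itpkb-/- and WT cells, and Slc25a3, the mitochondrial phosphate carrier, 72.2 and 63.9. Slc48a1, a haem transporter, had 54.1 per kb in Itpkb-/- cells and 63.5 in WT cells. At the other end, 173 members reached 1 normalized CPM in all 6 libraries and the other 20 did not. Just inside the threshold, ordered by the value that 3 libraries reached, were Slc25a29 (1.05), Slc25a43 (1.05) and Slc2a13 (1.20), and just outside were Slc37a3 (0.931), Slc9a2 (0.897) and Slc38a6 (0.871). Of the 169 rows under the threshold, 101 were listed at 0 in every library and 68 had some value, up to 5.75 in a single library.

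**Figure D2:**
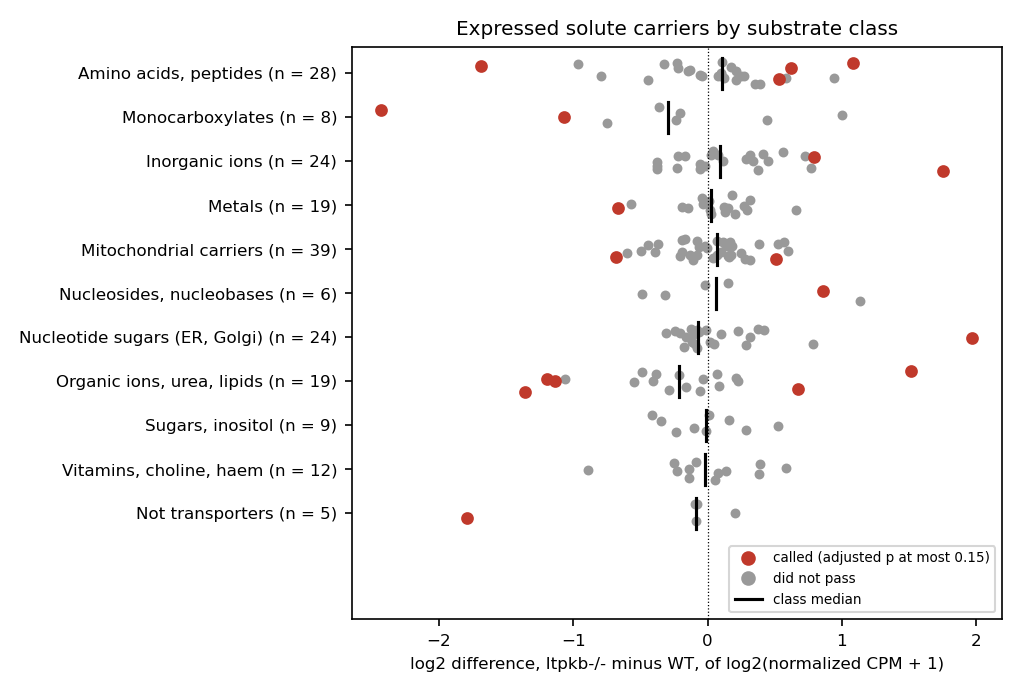
Log2 difference (Itpkb-/- minus WT, on log2 of normalized CPM plus 1) of each of the 193 members, by substrate class, with called members in red and the class median as a bar. The class medians lie between -0.30 for the 8 monocarboxylate members and 0.11 for the 28 amino acid members, and called genes lie on both sides of 0.

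Amino acid and peptide carriers formed a class of 28 members, of which 3 rose, 1 fell and 24 did not pass. For this class and those that follow, the limma background over all genes tested was 2.27% higher and 3.24% lower. The class median was 0.11 on the log2 scale, and 17 differences were positive. Slc1a5, the neutral amino acid exchanger ASCT2 that brings in glutamine, had 83.4, 74.4 and 82.0 normalized CPM across Itpkb-/- libraries and 47.7, 63.5 and 45.2 in WT libraries. The groups did not overlap, and the gene (chr7:16781340-16798274, mm10) was 1.53-fold higher in Itpkb-/- cells (log2 difference 0.62 ± 0.17 SE, limma adjusted p = 0.102). Its closest relative Slc1a4, which carries alanine, serine and cysteine, had 13.1, 16.5 and 15.3 in Itpkb-/- libraries and 8.95, 5.23 and 5.77 in WT libraries. All 3 mutant libraries again lay above all controls, with a 2.25-fold higher mean (log2 difference 1.09 ± 0.28, limma adjusted p = 0.0877; chr11:20302180-20332713).

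Both cationic amino acid transporters among the called genes, which import arginine and lysine, moved in opposite directions. Slc7a1 rose: it had 171, 119 and 175 normalized CPM across Itpkb-/- libraries and 115, 97.7 and 104 in WT libraries, so that Itpkb-/- replicate 2 lay just above the highest control (log2 difference 0.53 ± 0.16, limma adjusted p = 0.146; chr5:148327410-148399904). Slc7a2 fell to 2.18, 0.466 and 0.786 in the Itpkb-/- pools, against 3.98, 7.02 and 5.96 in WT libraries (log2 difference -1.69 ± 0.40, limma adjusted p = 0.0680; chr8:40862396-40922308). These are low levels that stand for 10, 3 and 6 reads in Itpkb-/- cells and 16, 47 and 32 reads in WT cells, and 635 bases of its exons overlap the lincRNA gene Gm26584. By level per kilobase, Slc7a1 was the more abundant in both genotypes, with 13.5 per kb in Itpkb-/- cells and 9.15 in WT cells, where Slc7a2 had 0.125 and 0.619. Without WT replicate 3 the adjusted p was 0.356 for Slc1a5, 0.292 for Slc1a4, 0.394 for Slc7a1 and 0.264 for Slc7a2. Of the 6 fits that each left out a library, the call held in 2 for Slc1a5, 2 for Slc1a4, 1 for Slc7a1 and 3 for Slc7a2.

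The amino acid carriers with the highest normalized CPM, not scaled by length, did not pass the test. Slc38a1, a sodium-coupled glutamine importer, had 299.7, 275 and 317 normalized CPM across Itpkb-/- libraries and 303, 276 and 263 in WT libraries (log2 difference 0.08, limma adjusted p = 0.813). Slc38a2, its neighbour on chromosome 15 and an importer of small neutral amino acids, averaged 303 ± 75.6 in Itpkb-/- cells and 278 ± 24.5 in WT cells (SD, n = 3 each, limma adjusted p = 0.835). The taurine transporter Slc6a6 had 238, 235 and 248 in Itpkb-/- cells and 181, 203 and 183 in WT cells. Its groups were apart, yet its adjusted p was 0.177 in the unpaired fit and 0.0380 with the replicate block. The peptide transporter Slc15a2 averaged 5.98 ± 3.30 in Itpkb-/- cells and 2.43 ± 0.762 in WT cells, with overlapping libraries (limma adjusted p = 0.292, and 0.127 with the block).

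Slc16, the monocarboxylate transporter family, had 10 members, of which 3 fell, 0 rose and 7 did not pass with limma. Over all genes tested, 3.24% were lower and 2.27% higher. Slc16a3, a gene of this family that the rule left out of the members, rose. It averaged 13.1 in Itpkb-/- cells and 4.22 in WT cells (limma adjusted p = 0.105, and 0.330 without WT replicate 3). Higher members with an unadjusted p under 0.05 were Slc16a1 and Slc16a6, which both passed with the replicate block; edgeR called neither and DESeq2 called Slc16a6. Slc16a12, a creatine transporter, showed the largest decrease of all 193 members. It had 0.218, 3.26 and 2.49 normalized CPM in Itpkb-/- libraries, against 11.4, 16.9 and 11.7 in WT libraries. The lowest of these stands for 1 read, and the others for 21 and 19 reads, where the controls held 46, 113 and 63 reads. The groups were far apart, with 1.99 ± 1.58 in Itpkb-/- cells and 13.4 ± 3.07 in WT cells (SD, n = 3 each; log2 difference -2.43 ± 0.45 SE, limma adjusted p = 0.0300; chr19:34668403-34747289). Slc16a9, linked to carnitine efflux in human genetic studies, had 21.999, 11.2 and 21.1 in Itpkb-/- libraries and 40.5, 34.1 and 38.3 in WT libraries (log2 difference -1.07 ± 0.26, limma adjusted p = 0.0706; chr10:70245100-70285968). Its exons share 491 bases with the antisense gene Gm7097, whose reads cannot be told apart in an unstranded library.

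The lactate and pyruvate carrier of the family, Slc16a1 (MCT1), was higher on average: it had 81.9, 69.5 and 72.1 normalized CPM across Itpkb-/- libraries and 42.8, 63.4 and 59.2 in WT libraries. The groups did not overlap, but the unpaired test was not passed (log2 difference 0.44, limma adjusted p = 0.256, and 0.0973 with the block). Slc16a6, known in zebrafish for ketone body export from the liver, had 21.3, 31.7 and 25.7 in Itpkb-/- libraries and 8.46, 21.8 and 10.2 in WT libraries (limma adjusted p = 0.159, and 0.0161 with the block). WT replicate 2 overlapped the mutant range. Without WT replicate 3 the adjusted p was 0.157 for Slc16a12 and 0.266 for Slc16a9. The call held in 5 of the 6 fits that left out a library for Slc16a12 and in 3 for Slc16a9. The 8 members grouped by substrate as monocarboxylate or sulfate carriers, a class that does not take in the whole Slc16 family, had a median of -0.30 on the log2 scale, with 6 negative differences.

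**Figure D3:**
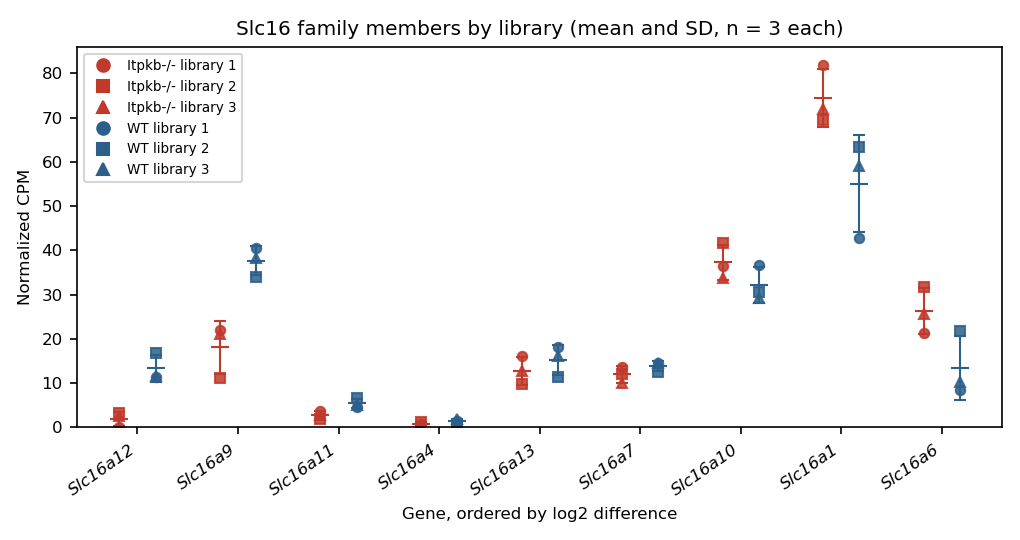
Normalized CPM of 9 Slc16 family members in each library (Itpkb-/- left of WT for each gene), with group mean and SD, n = 3 each, genes ordered by log2 difference. Slc16a12 and Slc16a9 lie lower in Itpkb-/- cells with no overlap, and Slc16a1 lies at 69.5 to 81.9 in Itpkb-/- cells and 42.8 to 63.4 in WT cells.

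Inorganic ion transporters numbered 24, of which 2 rose and none fell, with 22 not passed and a median of 0.09 on the log2 scale. Neither limma at an unadjusted p under 0.05 nor edgeR nor DESeq2 gave a lower member. The sodium-phosphate cotransporter Slc20a1 was among the most evenly separated members. It had 62.9, 60.3 and 57.1 normalized CPM across Itpkb-/- libraries and 31.8, 33.5 and 37.6 in WT libraries. Group means were 60.1 ± 2.91 in Itpkb-/- cells and 34.3 ± 2.97 in WT cells (SD, n = 3 each), a 1.75-fold higher level (log2 difference 0.79 ± 0.16 SE, limma adjusted p = 0.0358; chr2:129198764-129211616). Its exons share 452 bases with the transcript 9830144P21Rik. Its paralogue Slc20a2 had 43.1, 22.4 and 31.3 in Itpkb-/- libraries and 21.6, 20.3 and 26.1 in WT libraries, which overlapped (limma adjusted p = 0.415). Slc24a3, a potassium-dependent sodium-calcium exchanger, had 9.58, 7.61 and 6.29 in Itpkb-/- libraries and 4.23, 0.448 and 1.30 in WT libraries. WT replicate 2 was at the floor of 3 reads. The means were 7.83 ± 1.66 in Itpkb-/- cells and 1.99 ± 1.98 in WT cells, whose SD was nearly as large as their mean (log2 difference 1.75 ± 0.45, limma adjusted p = 0.0945; chr2:145167754-145642166). Without WT replicate 3 the adjusted p was 0.152 for Slc20a1 and 0.299 for Slc24a3. The call held in 5 of those 6 fits for Slc20a1 and in 2 for Slc24a3.

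Slc8a1 and Slc9a9 passed with the replicate block but not in the unpaired fit. The sodium-calcium exchanger Slc8a1 had 40.9 ± 10.4 in Itpkb-/- cells and 52.9 ± 9.17 in WT cells, with overlapping libraries (limma adjusted p = 0.419, and 0.140 with the block). Slc9a9, an endosomal sodium-proton exchanger, averaged 16.01 ± 5.03 in Itpkb-/- cells and 9.62 ± 4.63 in WT cells (limma adjusted p = 0.335, and 0.0920 with the block).

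Promoter sequence was read for the members that RefSeq's table covers, as the 250 bases upstream of each start, to show what the called genes carry there. The table matched 145 members and 13 of the 19 called genes. The E-box CACGTG, which reads the same on both strands, was found in 24 member promoters, or 16.6%, and in 6.86% of all 27025 promoters. The members were chosen by their expression level and the 27025 promoters were not. These shares thus describe unlike sets, and no share over expressed genes alone was computed. Among the 13 called genes it was in 2, Slc20a1, which rose, and Slc16a12, which fell. Their windows are shown because they carry the same letters above genes that moved in opposite directions. Both are RefSeq sequence of build GRCm38.p6, 5′ to 3′ on the strand of the gene, with CACGTG in capitals. Slc20a1 is chr2:129198523-129198772 on the plus strand and Slc16a12 is chr19:34747329-34747578 on the minus strand.
Slc20a1: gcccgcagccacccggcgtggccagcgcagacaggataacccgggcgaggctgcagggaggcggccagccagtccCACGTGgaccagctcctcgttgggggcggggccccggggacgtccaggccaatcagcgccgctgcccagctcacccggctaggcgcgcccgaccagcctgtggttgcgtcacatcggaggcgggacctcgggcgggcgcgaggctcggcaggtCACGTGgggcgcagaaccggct
Slc16a12: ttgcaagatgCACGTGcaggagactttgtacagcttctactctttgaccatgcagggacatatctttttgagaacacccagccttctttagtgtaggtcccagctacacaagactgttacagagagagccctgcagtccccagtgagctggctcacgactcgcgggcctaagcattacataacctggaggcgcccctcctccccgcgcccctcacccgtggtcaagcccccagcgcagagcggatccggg

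The Slc20a1 window held the motif in 2 places and the Slc16a12 window in 1, near its upstream end. Another 4 motifs were searched on both strands, and no motif of the 5 contains another. TGATGNAA, the core of amino acid response elements, was in 3 member promoters and in none of the 13 called genes, where 3.91% of all promoters held it. TGCGCNC, bound by NRF1, was in 31 member promoters, or 21.4%, and in 13.99% of all, with Slc20a1 the single called gene. CCGGAAGT, an ETS motif, was in 4 member promoters and no called gene (3.23% of all). AGATAA, bound by erythroid and other factors of the Gata family, was in 15 member promoters, or 10.3%, and in 11.4% of all, among them the called genes Slc22a17, Slc25a5 and Slc9a3r2. For these motifs too, the share over all promoters was not limited to expressed genes. A motif match is a description of the letters and not of binding.

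Mitochondrial carriers were the largest class, with 39 members. Of these 1 rose, 1 fell and 37 did not pass, where 2.27% of all genes tested were higher and 3.24% lower. The median was 0.07 on the log2 scale. Slc25a5 rose: it had 700.1, 655 and 554 normalized CPM across Itpkb-/- libraries and 453, 444 and 437 in WT libraries. The controls lay close together, below the lowest mutant library, with means of 636 ± 74.8 in Itpkb-/- cells and 445 ± 7.57 in WT cells (SD, n = 3 each; 1.43-fold higher, log2 difference 0.51 ± 0.12 SE, limma adjusted p = 0.0777; chrX:36795651-36798807). A processed copy, Slc25a5-ps, is annotated, so the division of reads between near-identical sequences is uncertain. The other abundant ADP/ATP exchanger, Slc25a4, had 84.3, 88.1 and 95.9 in Itpkb-/- libraries and 94.0, 87.9 and 98.1 in WT libraries, which overlapped (limma adjusted p = 0.880). Slc25a3 had 419.9, 414 and 368 in Itpkb-/- libraries and 342, 363 and 359 in WT libraries, a separation too small to pass (log2 difference 0.17, limma adjusted p = 0.523).

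Slc25a23, a calcium-regulated exchanger of ATP-magnesium and phosphate, fell to 49.01, 40.1 and 59.0 normalized CPM in Itpkb-/- libraries, against 75.8, 73.4 and 87.9 in WT libraries (log2 difference -0.68 ± 0.17, limma adjusted p = 0.0877; chr17:57043711-57059863). Every mutant library lay below every control. Its exons share 168 bases with the antisense gene Gm17168. Slc25a20, the carnitine-acylcarnitine carrier of fatty acid oxidation, averaged 31.01 ± 4.82 in Itpkb-/- cells and 20.4 ± 1.12 in WT cells without overlap (limma adjusted p = 0.185, and 0.0829 with the block). Slc25a36, a pyrimidine nucleotide carrier, averaged 52.3 ± 16.4 in Itpkb-/- cells and 66.5 ± 10.2 in WT cells (limma adjusted p = 0.450, and 0.137 with the block). Without WT replicate 3 the adjusted p was 0.299 for Slc25a5 and 0.335 for Slc25a23, and each call held in 2 of the 6 fits that left out a library. Summed per kilobase, the 39 members stood at 768 in Itpkb-/- cells and 659 in WT cells, of which Slc25a5 alone supplied 387 and 270.3.

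Nucleoside and nucleobase transporters numbered 6, and 1 of them rose. Slc43a3, a purine nucleobase transporter, had 127, 138 and 106 normalized CPM across Itpkb-/- libraries and 61.2, 67.9 and 72.6 in WT libraries, well apart. The group means were 123.5 ± 15.99 in Itpkb-/- cells and 67.2 ± 5.74 in WT cells (SD, n = 3 each), 1.84-fold higher (log2 difference 0.86 ± 0.15 SE, limma adjusted p = 0.0224; chr2:84936579-84958509). It was called in all 6 fits that left out a library, with an adjusted p of 0.113 without WT replicate 3. Slc43a1, an amino acid transporter that lies 72984 bases away on the same strand, had 143, 92.0 and 87.8 in Itpkb-/- libraries and 112, 87.4 and 91.4 in WT libraries (limma adjusted p = 0.831). Slc28a2, a sodium-coupled purine nucleoside transporter, had 51.6, 110.0 and 32.4 in Itpkb-/- libraries and 28.6, 28.4 and 20.1 in WT libraries. The groups were separate but the mutant libraries were spread widely (log2 difference 1.14, limma adjusted p = 0.151, and 0.00465 with the block). The highest value was in Itpkb-/- replicate 2, the library with the highest summed granulocyte markers. The part of those markers in this value was not tested. The equilibrative nucleoside transporter Slc29a1 had 16.99, 17.9 and 13.2 in Itpkb-/- libraries and 25.1, 24.2 and 19.4 in WT libraries, lower in each but not past the test (log2 difference -0.49, limma adjusted p = 0.318).

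Carriers of nucleotide sugars and other residents of the endoplasmic reticulum and Golgi numbered 24, with a median of -0.07 on the log2 scale. The single called gene was Slc35d3, which showed the largest increase of all 193 members. It had 21.8, 13.2 and 23.9 normalized CPM across Itpkb-/- libraries and 2.49, 5.98 and 4.47 in WT libraries. The group means were 19.6 ± 5.64 in Itpkb-/- cells and 4.31 ± 1.75 in WT cells (SD, n = 3 each), 4.55-fold higher (log2 difference 1.97 ± 0.34 SE, limma adjusted p = 0.0224; chr10:19847916-19851459). The values rest on 100, 85 and 182 reads in Itpkb-/- libraries and 10, 40 and 24 reads in WT libraries. Slc35d3 is known in mice for a mutation that disturbs the dense granules of platelets. The 7 megakaryocyte markers summed to 1403, 1159 and 2261 in Itpkb-/- libraries and 1534, 1463 and 1636 in WT libraries. By limma 2 of these markers rose and 1 fell, where 2.27% of all genes tested were higher and 3.24% lower. The part of these markers in the Slc35d3 value was not tested. The call held in all 6 fits that left out a library, with the highest adjusted p, 0.113, without WT replicate 3. The abundant members of the class did not pass: Slc35a4 had 239, 225 and 216 in Itpkb-/- libraries and 261, 209.8 and 218 in WT libraries (limma adjusted p = 0.976), and Slc35c1, the GDP-fucose transporter, averaged 100.5 ± 7.95 in Itpkb-/- cells and 113 ± 3.596 in WT cells (limma adjusted p = 0.569).

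Transporters of organic ions, urea and lipids formed a mixed class of 19 members in which 2 rose, Slc14a2 included, and 3 fell. The median was -0.21 on the log2 scale, with 13 negative differences. The urea transporter Slc14a1 had its highest level per kilobase. It had 596, 396 and 478 normalized CPM across Itpkb-/- libraries and 277, 319.7 and 314 in WT libraries. The lowest mutant library exceeded the highest control (490.4 ± 101 in Itpkb-/- cells and 303 ± 23.5 in WT cells, SD, n = 3 each; log2 difference 0.67 ± 0.15 SE, limma adjusted p = 0.0595; chr18:78100091-78142119). Its relative Slc14a2 lies 4028 bases upstream on the same strand. That gene had 2.83, 2.18 and 4.46 in Itpkb-/- libraries and 0.497, 0.598 and 0.186 in WT libraries, or 13, 14 and 34 reads against 2, 4 and 1 reads (chr18:78146148-78596942). It passed the level threshold only through the Itpkb-/- libraries, so its values are given as a description, and no fold is drawn from the few control reads. Its limma call is nonetheless counted among the 10 higher members and in the shares drawn from them. Without Slc14a2 and Slc17a8, 9 of 191 members rose.

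Slc22a17 and Slc18b1 fell. Slc22a17, a receptor of lipocalin-2, a siderophore-binding protein, had 2.40, 2.64 and 2.88 normalized CPM across Itpkb-/- libraries and 11.4, 5.23 and 9.49 in WT libraries (log2 difference -1.36 ± 0.34, limma adjusted p = 0.0814; chr14:54906304-54913132). Slc18b1, a vesicular polyamine transporter, had 7.19, 6.06 and 5.50 in Itpkb-/- libraries and 20.4, 8.07 and 22.3 in WT libraries, of which replicate 2 lay near the mutant range (log2 difference -1.20 ± 0.36, limma adjusted p = 0.137; chr10:23796986-23827968). The vesicular monoamine transporter Slc18a2 was abundant and did not pass, with 255, 117 and 172 in Itpkb-/- libraries and 241, 175 and 189 in WT libraries (limma adjusted p = 0.740). Slc17a8, a vesicular glutamate transporter, had 0.871, 0.622 and 0.786 in Itpkb-/- libraries and 4.97, 2.09 and 1.68 in WT libraries. It passed the level threshold only through the WT libraries, and its values too are given as a description. Without WT replicate 3 the adjusted p was 0.228 for Slc14a1, 0.299 for Slc22a17 and 0.424 for Slc18b1. The calls held in 3, 3 and 2 of the 6 fits that left out a library for Slc14a1, Slc22a17 and Slc18b1.

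Metal transporters numbered 19, with 1 lower and none higher by limma, edgeR or DESeq2, and 1 higher at an unadjusted limma p under 0.05. Slc39a13, a zinc transporter of the Golgi and its vesicles, had 18.3, 16.2 and 21.9 normalized CPM across Itpkb-/- libraries and 32.6, 25.7 and 32.9 in WT libraries (log2 difference -0.67 ± 0.21, limma adjusted p = 0.1495; chr2:91061791-91070417). This adjusted p lies barely inside the limit of 0.15. It was 0.417 without WT replicate 3, and the call held in 1 of the 6 fits, the one without Itpkb-/- replicate 3. A stretch of 215 bases of its exons overlaps Psmc3. The zinc transporters Slc39a6 and Slc39a9 averaged 107 ± 8.61 and 79.98 ± 9.87 in Itpkb-/- cells and 97.3 ± 9.09 and 80.4 ± 21.9 in WT cells (limma adjusted p = 0.704 and 0.972).

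None of the 9 sugar and inositol carriers passed with limma, edgeR or DESeq2, 1 had an unadjusted limma p under 0.05, and the class median was -0.01. Slc50a1, a sugar transporter of the SWEET type, had 46.4, 39.5 and 38.9 normalized CPM across Itpkb-/- libraries and 55.7, 51.6 and 60.1 in WT libraries, lower without overlap (limma adjusted p = 0.233, and 0.0988 with the block). The myo-inositol transporter Slc5a3 had 49.9, 26.3 and 41.7 in Itpkb-/- libraries and 59.4, 36.02 and 53.1 in WT libraries. The ranges overlapped although each mutant library was below the control of the same number (limma adjusted p = 0.572, and 0.183 with the block). The other myo-inositol transporter, Slc2a13, was at the threshold with 1.31, 0.311 and 0.393 in Itpkb-/- libraries and 0.249, 1.20 and 1.49 in WT libraries.

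Likewise none of the 12 carriers of vitamins, choline, haem and cofactors passed in the unpaired limma fit or with edgeR, 3 had an unadjusted limma p under 0.05, and 6 differences were positive. DESeq2 called 1, Slc44a2. The choline transporter Slc44a2 had 207, 175 and 184 normalized CPM across Itpkb-/- libraries and 143, 137 and 149.9 in WT libraries, without overlap (log2 difference 0.39, limma adjusted p = 0.157, and 0.0295 with the block). Slc25a17, a peroxisomal carrier of cofactors such as coenzyme A, had 69.0, 51.3 and 39.7 in Itpkb-/- libraries and 39.5, 33.2 and 31.1 in WT libraries, barely apart (limma adjusted p = 0.213, and 0.0339 with the block). The riboflavin transporter Slc52a3 averaged 2.64 ± 1.21 in Itpkb-/- cells and 5.62 ± 2.03 in WT cells (limma adjusted p = 0.299, and 0.149 with the block). Slc48a1 averaged 149 ± 33.6 in Itpkb-/- cells and 175 ± 14.9 in WT cells, with overlap (limma adjusted p = 0.515).

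The name pattern also took in 5 genes that are not transporters, of which 1 fell. Slc9a3r2, also known as NHERF2, is a scaffold protein that binds the tails of sodium-proton exchangers and other membrane proteins. It had 1.74, 5.28 and 2.88 normalized CPM across Itpkb-/- libraries and 13.7, 13.5 and 12.1 in WT libraries (log2 difference -1.79 ± 0.34 SE, limma adjusted p = 0.0320; chr17:24639286-24650327). The control libraries lay close together and well above the mutant ones, with means of 3.30 ± 1.81 in Itpkb-/- cells and 13.1 ± 0.853 in WT cells (SD, n = 3 each). Without WT replicate 3 its adjusted p was 0.165, and the call held in the other 5 such fits. Its paralogue Slc9a3r1 was the more abundant, with 50.97 normalized CPM per kb in Itpkb-/- cells and 54.5 in WT cells, and did not pass (limma adjusted p = 0.834). Slc4a1ap, which encodes a nuclear protein, averaged 38.2 ± 8.04 in Itpkb-/- cells and 40.4 ± 9.87 in WT cells (limma adjusted p = 0.918).

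By place in the cell, 95 members act at the plasma membrane, of which 8 rose and 6 fell, and 40 in mitochondria, of which 1 rose and 1 fell. Of the 31 in the endoplasmic reticulum and Golgi, 1 rose and 1 fell. Over all genes tested, 2.27% were higher and 3.24% lower. The 8 higher members at the plasma membrane include Slc14a2, which reached the level threshold only through the Itpkb-/- libraries. None of the 12 in endosomes and lysosomes passed with limma, edgeR or DESeq2, and 1 had an unadjusted limma p under 0.05. Of these 12 differences 9 were negative, yet the replicate block called 2 higher and 0 lower. The block called 9.15% of all genes higher and 8.97% lower. A separate group of 6 members in vesicles and lysosomes had 1 that fell, Slc18b1, and 5 negative differences.

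The spread among libraries of a genotype differed between members. The median coefficient of variation was 19.8% in Itpkb-/- cells and 15.4% in WT cells. Slc4a1, the anion exchanger of red cells, was the most variable member among the WT libraries, with 7.19, 1.24 and 0.393 normalized CPM across Itpkb-/- libraries and 14.2, 0.747 and 1.12 in WT libraries. It was highest in replicate 1 of both genotypes. Among Itpkb-/- libraries Slc6a17 had the highest coefficient of variation, with values of 0, 0 and 2.62. The globin gene Hbb-b1, like Slc4a1, was highest in replicate 1 of both genotypes. It had 79.5, 18.03 and 6.16 in Itpkb-/- cells and 152, 13.5 and 33.9 in WT cells.

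Same-numbered libraries deviated together, with correlations of 0.296, 0.268 and 0.284 across genes for the numbers 1, 2 and 3. With the number as a block, the 19 called members were all called again and 14 further members were added, 9 higher and 5 lower. Over all genes the block called 9.15% higher and 8.97% lower, where 9.84% and 7.25% of the members were called in those directions. The 9 added higher members were Slc28a2, Slc44a2, Slc16a6, Slc6a6, Slc25a20, Slc25a17, Slc16a1, Slc15a2 and Slc9a9. The 5 added lower members were Slc50a1, Slc17a8, Slc52a3, Slc25a36 and Slc8a1. Without Slc14a2 and Slc17a8, each above the level threshold in libraries of 1 genotype only, the block called 18 higher and 13 lower. In 82 of the 193 members the 3 same-numbered differences had one sign, 42.5% where 43.6% of all genes tested did.

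**Figure D4:**
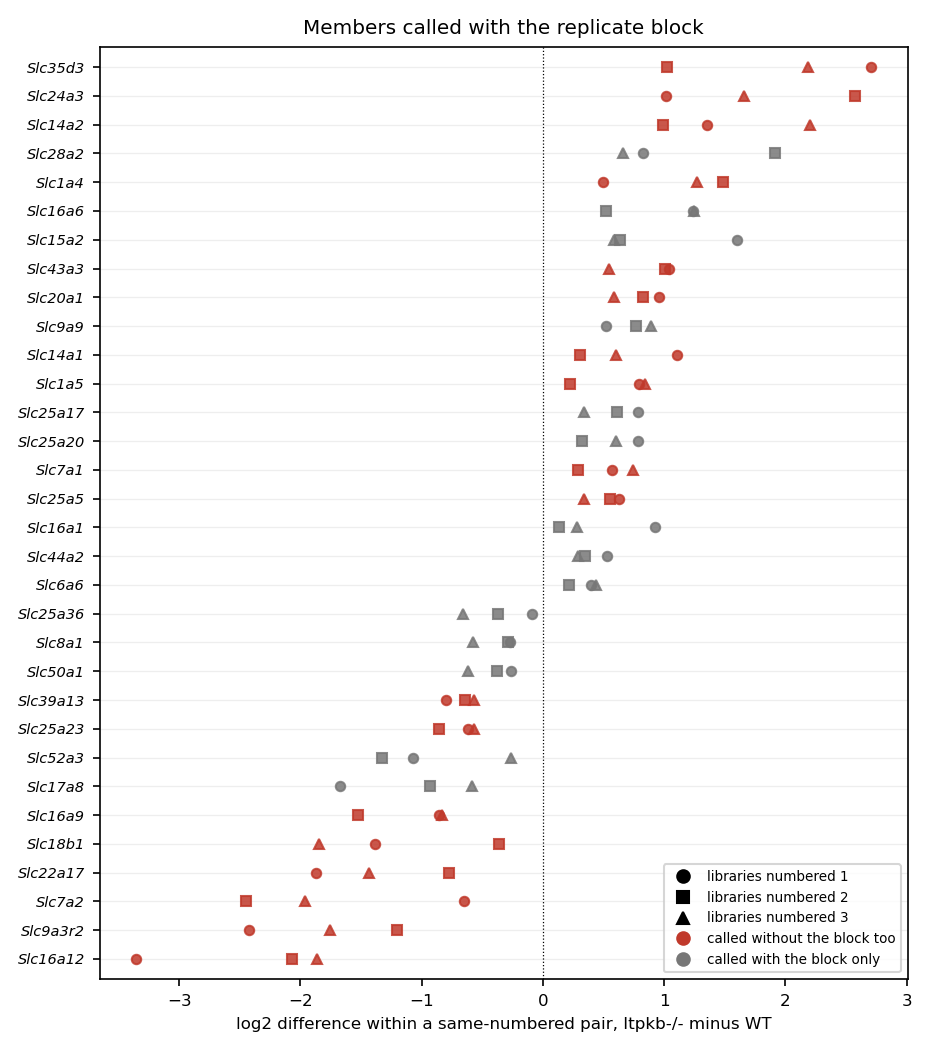
Log2 difference (Itpkb-/- minus WT) within each same-numbered pair of libraries for 32 members called with the replicate block, with 18 called in both fits in red and the 14 called only with the block in grey. Points of a gene lie on one side of 0 in the rows shown, and the overall difference of each of the 14 grey genes lies nearer to 0 than those of Slc35d3 (1.97) and Slc16a12 (-2.43).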

How the data were processed

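RNA of 3 Itpkb-/- and 3 WT pools of LT-HSC was sequenced. The submitters' processing notes name CASAVA 1.8.2, cutadapt, TopHat2 2.0.8b, Partek, edgeR and build mm10; the series design text gives TopHat 1.4.1 and Partek 6.6. The deposited values are a signal, gene counts that the authors divided by 1 factor per library, on the scale of CPM. Every value (100%) was a whole number of reads within 0.01 read.

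Values were tested with limma 3.58.1 (R 4.3.3, mean-variance trend) on log2(value + 1), a scale that understates changes of low genes, over the 12008 genes that reached 1 normalized CPM in 3 libraries. P-values were adjusted over all of them by the Benjamini-Hochberg method. The planned count test, edgeR 4.0.16, was run on the recovered reads as an alternative, as was DESeq2 1.42.0: edgeR called 692 of 11486 genes (6.02%) and the same 19 members. Same-numbered libraries correlated at 0.268 to 0.296 in their deviations from the group means, and other pairs at -0.0475 or below, so the numbers were taken as pairs in an alternative fit with a replicate block.

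Members, substrate classes and lists were chosen with earlier results of these data known, and some class assignments were made after the files were read. Some members counted in the totals are not reported here. Named genes are otherwise the called members, the 2 most abundant of each class and that with the smallest p, and those at the threshold. Others (members called with the block, relatives of called genes, the most variable) were named after their values were seen. Gene positions and exon lengths are from GENCODE M21 on mm10. Of the members, 49 share exon sequence with another gene, and reads there cannot be assigned without strand.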

Additional observations from a re-analysis of the deposited data

How the results depend on the processing

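With the replicate block, 19 members were higher and 14 lower, and 2176 of all genes were called. Under a limit of 0.05 on the adjusted p the counts were 3 higher, 2 lower and 182 of all genes; under the fold and level limits of the design text 6, 4 and 387; with a covariate of granulocyte marker level 4, 2 and 186; and after both libraries numbered 2 were left out, 2 higher, 4 lower and 139. Leaving out a library gave 2 to 9 higher members, 0 to 11 lower members and 74 to 837 genes in all. The count of 0 lower came from limma without WT replicate 3, where 12 lower members had an unadjusted p under 0.05; edgeR and DESeq2 were run on all 6 libraries and each called 9 lower. Other pseudocounts, filters and scalings kept 14 to 19 of the 19 calls. None of the 40 members named by rule was called in opposite directions by these alternatives. Over those 40 genes and 19 alternatives, 604 of 752 values kept their direction and side of the threshold, 116 lost the call and 8 gained it. All 116 losses were values of the 19 called members. For the other genes, staying uncalled in the same direction counted as kept, so the pooled 604 overstates how steady the calls were. Another 24 values, all of genes that did not pass, crossed 0. The median over all genes was moved by at most 0.03 by another scaling. With 3 libraries a group, members near 1 normalized CPM rest on few reads.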

Other observations

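Transporters outside the solute carrier numbering were listed for comparison. Of 89 symbols listed for ABC transporters, ion pumps, channels and other carriers, 75 were tested, and limma called 6 higher and 2 lower in Itpkb-/- LT-HSC, with a median log2 difference of 0.09. Over all genes 2.27% were higher and 3.24% lower. With the replicate block the list had 14 higher and 8 lower, where all genes had 9.15% and 8.97%. Slco3a1, an organic anion transporter, had 114, 129 and 120 normalized CPM in Itpkb-/- pools and 72.1, 59.8 and 73.7 in WT libraries (log2 difference 0.82, limma adjusted p = 0.0224). Mfsd2b, a sphingosine-1-phosphate exporter of red cells and platelets, had 185, 121 and 127 in Itpkb-/- libraries and 78.1, 80.6 and 82.5 in WT libraries (log2 difference 0.81, limma adjusted p = 0.0432). Of calcium transport genes on the list, those that rose were Atp2a2, the pump of the endoplasmic reticulum (239 ± 12.8 in Itpkb-/- cells and 183 ± 9.01 in WT cells, limma adjusted p = 0.144), and Mcu, the mitochondrial calcium uniporter (22.01 ± 3.17 and 12.8 ± 1.97 in Itpkb-/- and WT cells, limma adjusted p = 0.146). The drug efflux pump Abcb1a fell to 0, 0.311 and 1.18 in Itpkb-/- libraries, against 2.98, 2.54 and 5.77 in WT libraries (limma adjusted p = 0.0948). When WT replicate 3 was left out, the adjusted p was 0.204 for Mfsd2b, 0.409 for Atp2a2, 0.377 for Mcu and 0.342 for Abcb1a, and the calls of Atp2a2, Mcu and Abcb1a each held in 1 of the 6 fits that left out a library.

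Of the 10 solute carriers left out of the members, 2 rose and none fell by limma, edgeR or DESeq2, where 2.27% of all genes were higher and 3.24% lower by limma. Slc2a1 was lower at an unadjusted limma p under 0.05 and was called lower with the replicate block (adjusted p = 0.0844).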
